A study of Mus musculus with 29 samples.

Results

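The glucocorticoid receptor (GR) and C/EBPβ were mapped in mouse liver along the stretch of chromosome 4 that leads to Errfi1. The members were taken by position: every ChIP-seq peak and every ChIP-exo border centred between 150.03 and 150.27 Mb of mm9 chromosome 4, a 240 kb window that starts left of some of the highest-scoring GR peaks of the genome and was laid out to run up to Errfi1. The position of the gene in mm9 was not checked here, so which regions lie before the gene and which at or past its start was not determined. The locus was selected on the measured GR scores, so the scores are described and not tested. The 9 ChIP-seq lists held 148 of their 107997 peaks in the window, and the 6 ChIP-exo lists held 1437 of their 255667 borders. GR peaks that overlapped by at least 1 bp were merged, which gave 23 regions of the 15329 in the whole series, numbered 1 to 23 from left to right.

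The livers were those of male mice, 12 weeks old, held in 12 h of light and 12 h of dark, whose strain had been crossed back to BALB/c for at least 4 generations. GRdim animals carry a mutation of the receptor, in all their cells, that impairs its dimerization, and GR+/+ littermates served as wild type (WT). Untreated animals gave tissue when the lights came on (6am) or went off (6pm). A further group carried pellets under the skin that released the synthetic glucocorticoid prednisolone (12 mg/kg, 24 h) and was sampled at 6am. All 6 of these groups had GR ChIP-seq and ChIP-exo, made with a pair of GR antibodies, and the 3 WT groups also had C/EBPβ ChIP-seq. Each list was 1 pool of 2 replicates, which leaves no replicate spread to measure, and no test was made. Whole liver was used, so binding in fewer cells and weaker binding per cell cannot be told apart, and the tissue could not be checked against markers because no expression was measured.

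Errfi1, also called Mig-6 or RALT, encodes an adaptor protein that binds the kinase domain of activated EGFR and of related ErbB receptors and shuts down their signalling. Its mRNA is induced by growth factors as negative feedback, and glucocorticoids are known to induce it as well. GR resides in the cytoplasm until it binds hormone, then enters the nucleus and binds DNA, classically as a homodimer on a palindrome of the hexamer AGAACA and its reverse complement separated by 3 bases. C/EBPβ is a leucine zipper factor abundant in hepatocytes, where it occupies many of the sites at which GR binds. ChIP-exo trims the precipitated DNA with an exonuclease, so that a bound protein leaves a border of tags on the plus strand at its left edge and a border on the minus strand at its right edge.

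By gene order in RefSeq for GRCm38.p6, the protein-coding genes next to Errfi1 are Slc45a1 on its left and Park7 on its right. The table holds a pair of Errfi1 start sites 1274 bp apart, and the 300 bases around each are shown because Errfi1 is the gene the window leads to. Each runs from 250 bases before the start site to 50 after it on the plus strand, and capitals mark matches to the motifs named below.

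Errfi1 promoter 1, GRCm38.p6 chr4:150853546-150853845: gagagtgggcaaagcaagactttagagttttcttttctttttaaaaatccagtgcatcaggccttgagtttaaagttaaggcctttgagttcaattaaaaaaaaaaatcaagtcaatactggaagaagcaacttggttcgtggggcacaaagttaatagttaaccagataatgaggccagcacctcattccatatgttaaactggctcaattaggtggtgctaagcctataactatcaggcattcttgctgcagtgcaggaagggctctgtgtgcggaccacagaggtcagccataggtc
Errfi1 promoter 2, GRCm38.p6 chr4:150854820-150855119: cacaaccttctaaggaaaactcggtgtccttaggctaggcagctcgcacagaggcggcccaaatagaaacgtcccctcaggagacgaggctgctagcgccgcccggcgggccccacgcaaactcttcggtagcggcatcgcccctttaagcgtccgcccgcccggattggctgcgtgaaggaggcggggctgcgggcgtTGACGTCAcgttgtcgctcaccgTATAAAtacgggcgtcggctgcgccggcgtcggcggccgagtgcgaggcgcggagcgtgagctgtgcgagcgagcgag

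The right-hand promoter had 66.7% G and C and 41 CpG, the left-hand one 42.0% and 2, against medians of 52.7% and 7 over 32851 promoters of the table. The right-hand promoter held TGACGTCA, the cAMP response element, which is found in 1.79% of all promoters, and TATAAA, the TATA box, found in 13.6%. Neither promoter held the full GR palindrome (0.00913% of promoters), its hexamer AGAACA (19%), the C/EBP core TTGCNNAA (10.8%) or the E-box CACGTG (7.15%), with both strands searched. The motifs were picked with the sequences in view. These promoters carry coordinates of another build than the peaks, and the sequence under the peaks was not analysed here, so no peak is placed on either promoter.

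Across the whole series the GR lists held 3183 to 14270 peaks and the C/EBPβ lists 21644 to 26226, and the ChIP-exo libraries ranged from 31.6 to 55.7 M tags (M, 1000000). The shallowest ChIP-exo library was that of GRdim at 6am, which also had the shortest list, 14391 borders. GR peaks in the window numbered 13 (6am), 22 (6pm) and 15 (prednisolone) for WT and 10, 16 and 11 for GRdim. The 23 regions spanned 187 kb, with a median of 2.73 kb between neighbours, and the widest gap, 52.1 kb, lay between regions 19 and 20. GR peaks of the WT 6pm list began with region 1, 29.4 kb inside the left end of the window. The nearest peak of that list beyond this end was 72.3 kb from it, with a score of 3.18. On the right, region 23 was the last inside, 23.9 kb from the end. The next WT 6pm peak lay 7.65 kb past the window with a score of 3.33.

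**Figure D1:**
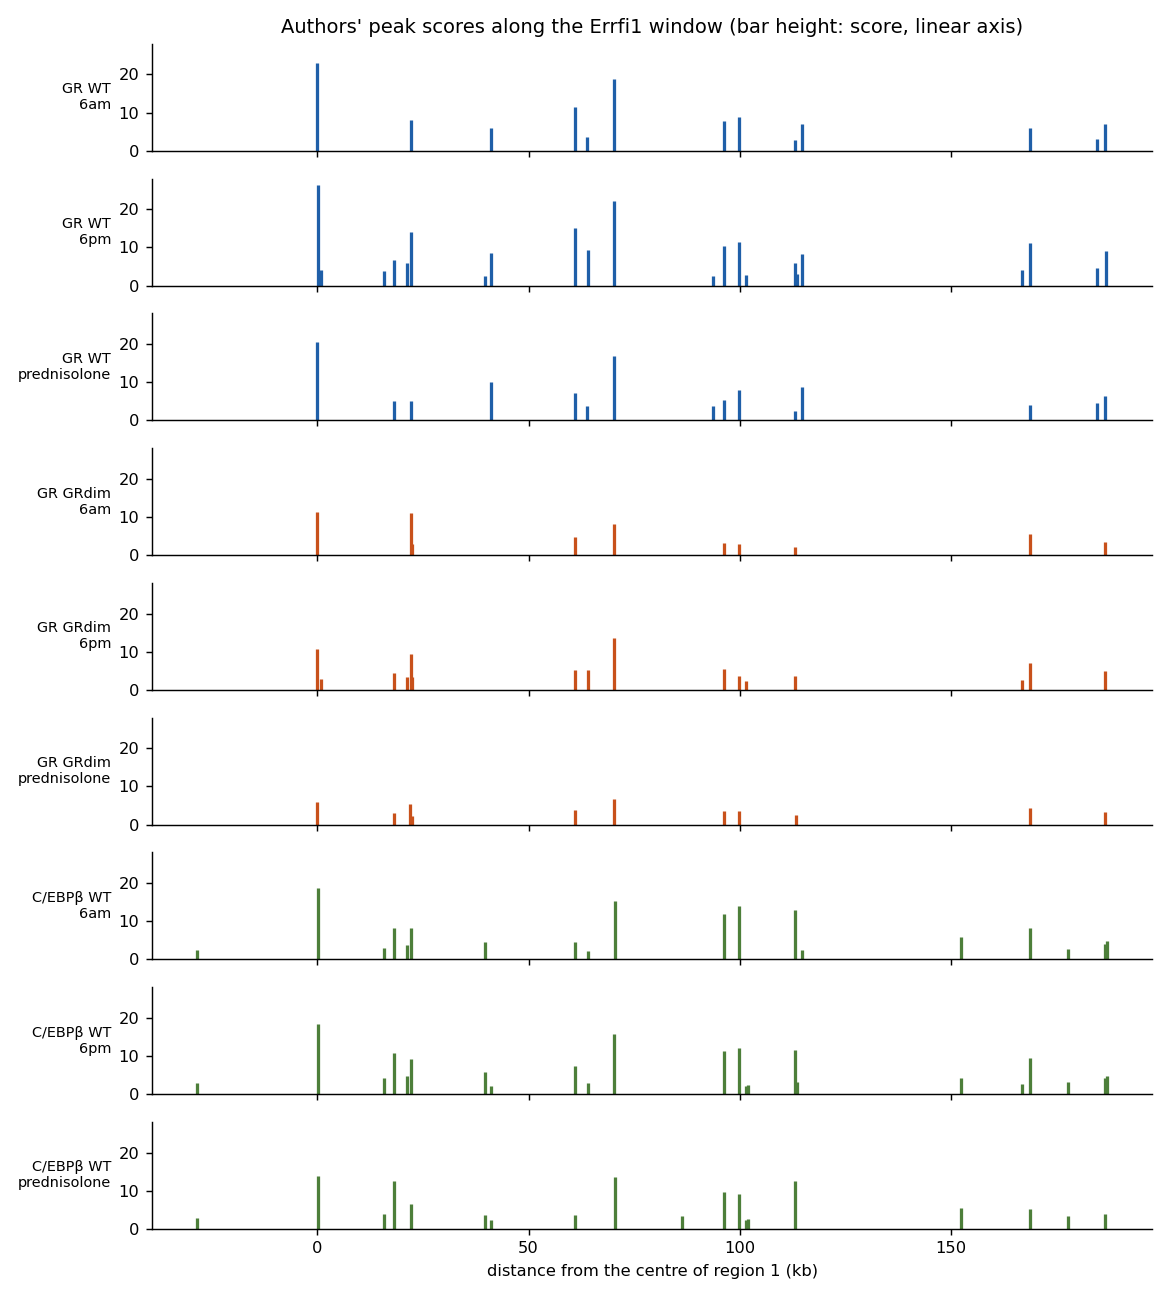
Authors' score of each ChIP-seq peak (bar height, linear axis from 0) against the distance in kb from the centre of region 1, in the 6 GR lists and the 3 C/EBPβ lists. Regions 1 and 12 stand highest in the WT lists, with 6pm scores of 26.35 and 22.14, and several WT bars have no counterpart in GRdim.

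Region 1, at 150059263 to 150059509, held the highest-scoring peak of the entire WT 6pm list. In WT the authors' peak score there was 22.95 (6am), 26.35 (6pm) and 20.42 (prednisolone), which ranked 3, 1 and 7 in the lists. In GRdim the scores were 11.18, 10.64 and 5.91, at ranks 3, 19 and 56. The region was therefore among the leading peaks of both genotypes at 6am. Values in series below follow the same order of 6am, 6pm and prednisolone. Region 12, at 150129585 to 150129796 and 70.3 kb to the right, scored 18.80, 22.14 and 16.78 in WT and 8.21, 13.45 and 6.73 in GRdim. It ranked between 5 and 32 in all 6 lists, and its highest rank was in GRdim at 6pm.

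These regions also held the largest shares of ChIP-exo tags in the WT libraries. Of the tags of listed borders within 100 bp of the 23 region centres, region 1 held 31.6%, 30.7% and 32.6% in the WT libraries, and region 12 held 20.9%, 20.8% and 19.9%. In GRdim the leading place went to region 1 at 6am with 31.1%, to region 12 at 6pm with 25.6% and to region 1 after prednisolone with 17.9%. Second in GRdim were region 6 at 6am with 22.8%, region 1 at 6pm with 22.6% and region 12 after prednisolone with 17.5%.

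Region 6, at 150081319 to 150081580, had the higher score in GRdim at 6am and after prednisolone. Its scores were 8.03, 13.96 and 5.07 in WT and 10.89, 9.34 and 5.50 in GRdim. Its rank in GRdim at 6am was 4, against 262 in the WT list. The 6pm list was the only one of the 3 conditions in which its WT score was above that of GRdim.

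Of the 23 regions, 9 were in all 6 GR lists, against 10.1% of regions in the whole series. Besides regions 1, 6 and 12 these were regions 10, 14, 15, 17, 21 and 23, and all 9 had their highest WT score at 6pm, as did 95% (1468 of 1545) of such regions in the series. Region 10, at 150120293 to 150120547, scored 11.57, 15.05 and 7.28 in WT and 4.70, 5.30 and 3.90 in GRdim. Region 14, at 150155552 to 150155819, scored 7.84, 10.49 and 5.44 in WT and 3.26, 5.41 and 3.57 in GRdim. Both kept the order of WT above GRdim under each condition.

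Region 15, at 150159036 to 150159296, had a large gap between genotypes, with 8.94, 11.47 and 7.92 in WT and 2.82, 3.72 and 3.46 in GRdim. Region 17, at 150172467 to 150172727, had lower scores, with 2.70, 5.99 and 2.51 in WT and 2.13, 3.65 and 2.45 in GRdim. Region 21, at 150228075 to 150228317, scored 6.01, 11.07 and 4.02 in WT and 5.43, 7.10 and 4.35 in GRdim, so that the GRdim score was the higher one after prednisolone. Region 23, at 150245938 to 150246155 and nearest to the right-hand end of the window, scored 6.97, 8.99 and 6.38 in WT and 3.54, 4.99 and 3.27 in GRdim. Where a region was listed in both genotypes, the WT score was higher at 8 of 9 regions at 6am, 15 of 15 at 6pm and 8 of 10 after prednisolone, against 72.2%, 92.6% and 58.7% of all regions listed in both. The lists have different lengths and their score unit is not stated, so these are values set side by side.

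Regions listed in WT and never in GRdim numbered 7 of 23, against 48.6% in the whole series, and 15 regions were listed in both genotypes, against 48.4%. Regions 9, 19 and 22 were in all 3 WT lists and no GRdim list, a pattern of 3.56% of all regions. Region 9, at 150100332 to 150100536, scored 5.86, 8.51 and 9.98, at ranks 582, 836 and 192 of lists that differ in length. Region 19, at 150174115 to 150174318, scored 6.97, 8.22 and 8.67, and region 22, at 150243875 to 150244081, scored 2.97, 4.60 and 4.47. Regions 9 and 19 had their highest WT score after prednisolone, unlike the 9 regions in all 6 lists. Region 13, at 150152971 to 150153188, was listed in WT at 6pm with 2.38 and after prednisolone with 3.68. Regions 3, 8 and 18 were in the WT 6pm list alone, with scores of 3.84, 2.41 and 3.00.

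Region 7, at 150081756 to 150081961, was the only region in GRdim lists alone, against 3.09% of regions in the series. It scored 2.89, 3.44 and 2.30 and lay 394 bp from the centre of region 6. The ChIP-exo libraries did not share this pattern. The WT libraries held 95, 216 and 60 tags of listed borders within 100 bp of its centre, and the GRdim libraries 65 at 6pm and 38 after prednisolone, with no border listed at 6am. The other 6 regions, 2, 4, 5, 11, 16 and 20, were in lists of both genotypes but not in all 6, and each of them was in both 6pm lists. Regions 2, 5, 16 and 20 were at 6pm alone, with WT scores of 4.13, 5.96, 2.81 and 4.20 and GRdim scores of 2.70, 3.23, 2.42 and 2.56.

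The recovery of WT peaks in GRdim was compared to see which part of the locus the mutant receptor occupied. Of the WT peaks of the window, 9 of 13 at 6am were found in the GRdim list of the same condition (69.2%, exact 95% interval 38.6 to 90.9), 15 of 22 at 6pm (68.2%, 45.1 to 86.1) and 10 of 15 after prednisolone (66.7%, 38.4 to 88.2). The same shares over all WT peaks were 47.5%, 49.4% and 48.5%, and lay inside each of these intervals. Of the GRdim peaks, 9 of 10, 15 of 16 and 10 of 11 were found in WT, against 86.2%, 94.7% and 65.1% in the whole lists. The intervals cover the counting of peaks only, and neighbouring peaks of 1 locus are not replicates.

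The locus kept its GR peaks after prednisolone. All 13 WT peaks of 6am were found after prednisolone (exact 95% interval 75.3 to 100), whereas in the whole list 55.2% were. All 10 GRdim peaks of 6am were found as well (69.2 to 100), against 64.8%. The locus was chosen for high GR scores, so nothing is read from this excess. In the other direction, 13 of 15 WT peaks and 10 of 11 GRdim peaks of prednisolone were found at 6am, against 74.2% and 64.3%. The WT peaks without a counterpart were those of regions 4 and 13, and the GRdim peak was that of region 4. Region 4, at 150077414 to 150077637, scored 5.07 in WT and 3.09 in GRdim after prednisolone and 6.76 and 4.53 at 6pm.

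Between the start of the light and of the dark phase, 12 of 13 WT peaks and 10 of 10 GRdim peaks of 6am were found at 6pm, against 97.5% and 92.9%. The exception was at region 11, at 150123080 to 150123505, where the WT peak of 6am, with a score of 3.65, and that of 6pm, with 9.24, lay side by side without overlap. Conversely, 12 of 22 WT peaks of 6pm (54.5%, exact 95% interval 32.2 to 75.6) and 10 of 16 GRdim peaks of 6pm (62.5%, 35.4 to 84.8) were found at 6am, against 39.5% and 39.8%.

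C/EBPβ was listed throughout the 3 WT conditions at 8 of the 9 regions in all GR lists, near the 86.9% of such regions in the series, and at 2 of the 7 listed in WT alone, against 42.7%. Peak by peak, 9 of 13 WT GR peaks at 6am overlapped C/EBPβ of that condition (69.2%, exact 95% interval 38.6 to 90.9), 17 of 22 at 6pm (77.3%, 54.6 to 92.2) and 11 of 15 after prednisolone (73.3%, 44.9 to 92.2). These shares were near those of the whole lists, 79.7%, 83.2% and 75.7%. Seen from C/EBPβ, 9 of 19 peaks at 6am, 17 of 23 at 6pm and 11 of 19 after prednisolone met a WT GR peak, against 21.3%, 45.3% and 14.8%. The window was chosen for its GR peaks, so nothing is read from this excess.

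Region 1 was also a leading C/EBPβ region, with scores of 18.69 at 6am, 18.31 at 6pm and 13.86 after prednisolone, at ranks 9, 5 and 100. The C/EBPβ peak centres lay 12 to 14 bp from the GR centre. Region 12 scored 15.19, 15.86 and 13.68, with centres 38 to 114 bp to the right of GR. Region 17, with GR scores of at most 5.99, had C/EBPβ scores of 12.82, 11.55 and 12.57. In region 4, C/EBPβ was listed at 6am with 8.32, when no GR peak was listed in either genotype, and scored 10.81 at 6pm and 12.57 after prednisolone, when GR was listed.

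None of the 9 regions in all 6 GR lists lacked C/EBPβ throughout, against 2.14% of such regions. The region that held it in only some lists was region 23, where C/EBPβ was listed at 6pm with 4.23 and after prednisolone with 3.84, more than 150 bp from the GR centre. Of the 7 regions in WT alone, 3 held it in 1 or 2 lists, and 2 held it in none, against 25.1%. Those without it were regions 13 and 22. Among the 3 regions of all WT and no GRdim lists, none held C/EBPβ in all 3 lists, against 44.9% of 546 such regions. Region 9 had C/EBPβ scores of 2.15 at 6pm and 2.33 after prednisolone and no peak at 6am, and region 19 a score of 2.41 at 6am alone, all close to the lowest listed score of 2.00. The numbers of regions are small, and C/EBPβ was not profiled in GRdim.

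**Figure D2:**
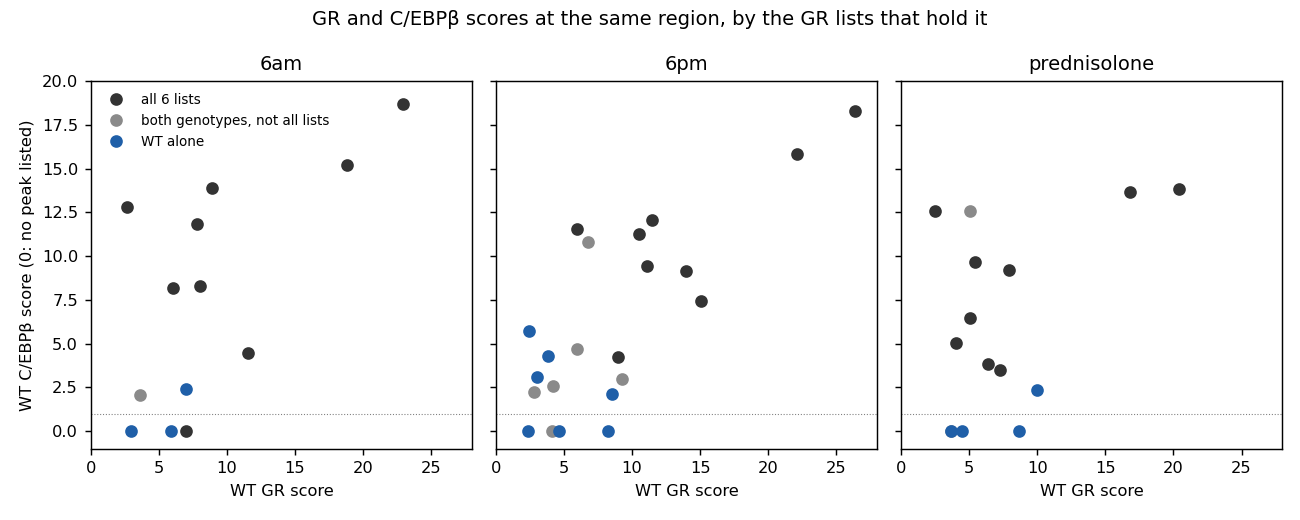
WT C/EBPβ score against WT GR score at each region with a WT GR peak, by condition, with 0 below the dotted line where no C/EBPβ peak was listed. Dark points are regions in all 6 GR lists, grey points regions of both genotypes in fewer lists, and blue points regions listed in WT alone, whose C/EBPβ scores are at most 5.72.

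Of the 5 C/EBPβ peaks in each list that met no GR region, 2 at 6am and 1 at 6pm flanked region 23 within 351 bp. The strongest of the others lay at 150211696 to 150211895 with 5.87 at 6am, inside the widest gap between GR regions, and was listed again at 6pm with 4.31 and after prednisolone with 5.42. A C/EBPβ peak at 150145739 to 150145938, with 3.27, was listed after prednisolone alone.

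ChIP-exo borders marked nearly every GR peak of the window. A border of the same library lay within 100 bp of 13 of 13 WT peak centres at 6am, 21 of 22 at 6pm and 15 of 15 after prednisolone, against 97.5%, 76.8% and 95.2% in the whole lists. In GRdim the counts were 9 of 10, 15 of 16 and 10 of 11, against 77.2%, 81.9% and 97.0%. The WT peak without a border was that of region 8. Many GRdim borders were weak. Counting only borders of at least 20 tags, 6 of 10, 9 of 16 and 7 of 11 GRdim peaks held a border. In WT 12 of 13, 18 of 22 and 14 of 15 did. A region with no listed border can still hold tags, since the lists leave out weak borders.

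Tags at the regions were more frequent in WT than in GRdim. They are given as RPM, tags per 1000000 tags of the library. Summed over borders within 100 bp of the 23 centres, WT held 160.0, 254.0 and 162.0 RPM and GRdim 40.9, 52.5 and 39.4. The sums come from 191, 168 and 157 borders in WT and 65, 106 and 102 in GRdim, so they also move with the number of borders that were listed. Where both genotypes had tags, WT was at least 2-fold higher at 9 of 12 regions at 6am, 15 of 17 at 6pm and 7 of 13 after prednisolone, against 49.0%, 47.7% and 21.9% of all regions. It was at least 2-fold lower at 0, 0 and 1 regions, against 4.67%, 7.74% and 25.0%. The median ratio of WT to GRdim was 3.55, 3.93 and 2.68 in the window and 1.96, 1.89 and 0.905 over all regions. Because the locus was chosen for strong WT peaks, this excess is a description.

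At region 1, WT held 50.5 RPM at 6am (exact Poisson 95% interval 48.7 to 52.4), 78.0 at 6pm (75.4 to 80.7) and 52.7 after prednisolone (50.8 to 54.6). GRdim held 12.7 (11.5 to 14), 11.9 (10.9 to 12.9) and 7.06 (6.31 to 7.88). No GRdim value came near a WT value there, and the ratio was 3.98 at 6am and 7.46 after prednisolone. The intervals cover the counting of tags only, since amplified reads are not independent molecules.

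At region 12, WT held 33.5, 52.9 and 32.1 RPM and GRdim 6.16, 13.4 and 6.91. At region 6, WT held 7.99, 16.5 and 4.99 and GRdim 9.33, 4.09 and 6.22, with ratios of WT to GRdim of 0.856 at 6am (exact binomial 95% interval 0.738 to 0.996), 4.03 at 6pm (3.42 to 4.78) and 0.802 after prednisolone (0.677 to 0.951). The GRdim library was therefore level with or above WT at this region at 6am and after prednisolone, as were the ChIP-seq scores. Region 21 had ratios of 2.99 at 6am (2.34 to 3.86), 2.26 at 6pm (1.93 to 2.66) and 0.568 after prednisolone (0.456 to 0.706). Region 5 was the other region whose ratio after prednisolone lay below 1 by its interval, at 0.399 (0.195 to 0.779) from 14 and 29 tags, and it was the 1 region at least 2-fold lower in WT.

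The regions absent from the GRdim ChIP-seq lists had few or no GRdim borders. At region 9, WT held 5.82 RPM at 6am (5.20 to 6.48), 9.90 at 6pm (8.99 to 10.9) and 14.9 after prednisolone (13.9 to 16.0), and no GRdim library listed a border. At region 13, WT held 2.10, 1.30 and 2.71, again with no GRdim border. At region 19, WT held 7.41, 9.0 and 10.1 and GRdim 0.316 at 6am and 0.457 at 6pm, from 10 and 20 tags, with no border listed after prednisolone. At region 22, WT held 3.03, 3.22 and 2.21 and GRdim 0.502 at 6pm and 0.509 after prednisolone, with none listed at 6am. These 4 regions were taken for their absence from the GRdim ChIP-seq lists, so their ChIP-exo values are a description and were not tested. Regions 3, 8 and 18, also absent from those lists, had no GRdim border either. WT held at most 33 tags in any library there, and in some libraries none, so they show no clear separation. A border under the listing minimum would not be seen.

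**Figure D3:**
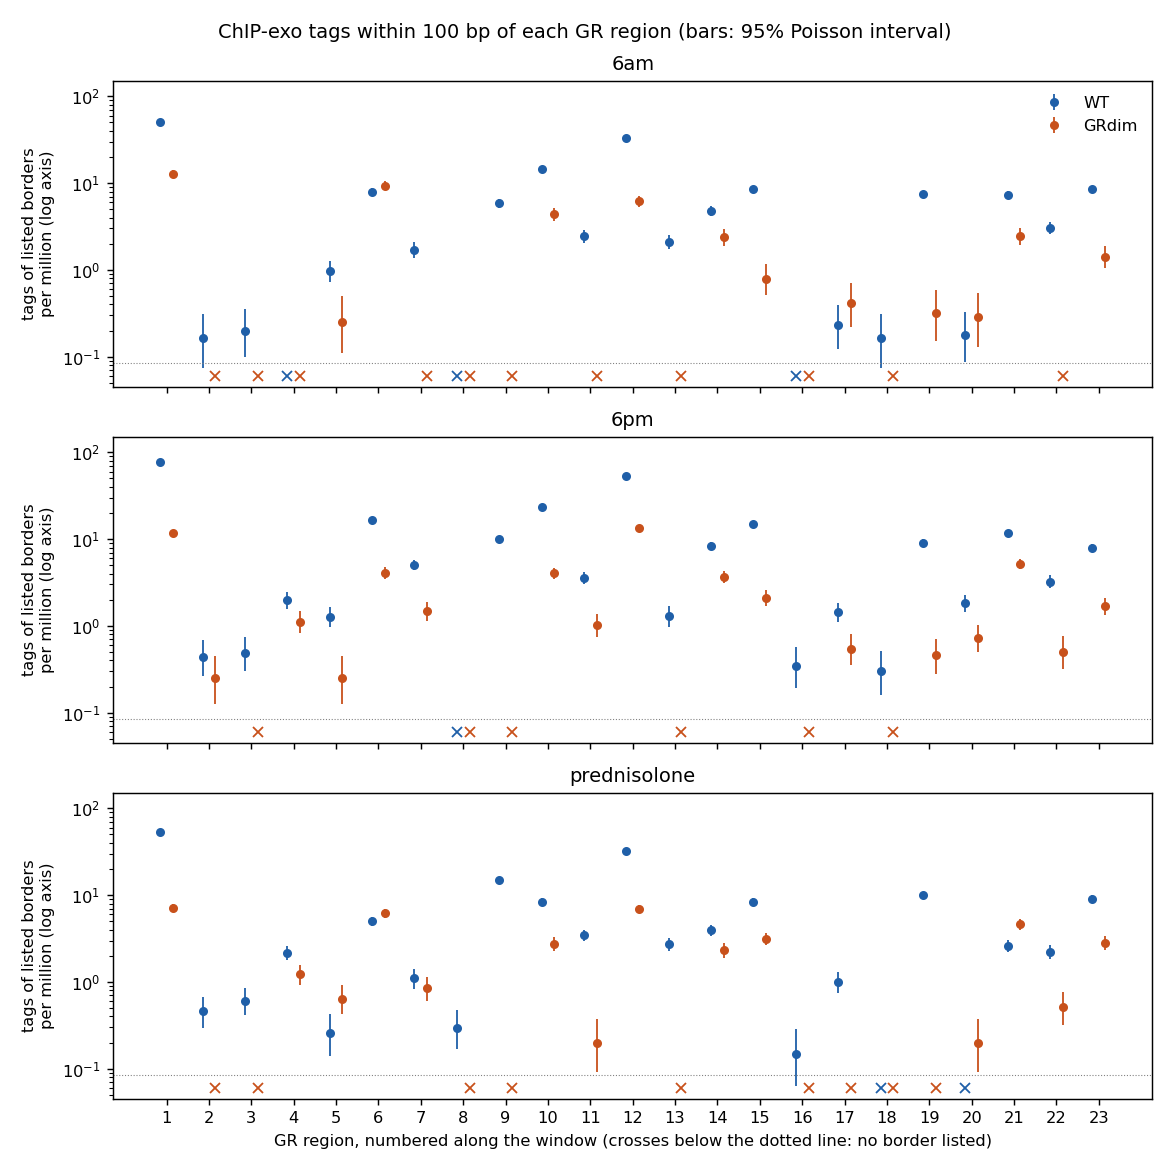
Tags of listed ChIP-exo borders within 100 bp of each of the 23 region centres, in RPM (log axis), for WT (blue) and GRdim (orange) under the 3 conditions, with 95% Poisson intervals. Crosses mark regions with no listed border, among them GRdim at regions 9 and 13 under every condition.

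In WT, 18 of the 20 regions with tags at both times held more RPM at 6pm than at 6am, against 72.1% of all regions. The median ratio was 1.66, close to the 1.55 of all regions, with 6 regions at least 2-fold higher and 0 at least 2-fold lower, against 35.7% and 8.48%. Regions 1, 10 and 12 had ratios of 1.54, 1.61 and 1.58. Regions 13 and 23, at 0.619 and 0.944, were the exceptions.

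After prednisolone the median ratio to 6am in WT was 1.01, against 0.764 over all regions, with 4 of 18 regions at least 2-fold higher and 2 at least 2-fold lower, against 15.0% and 32.3%. Regions 1 and 12 hardly moved, with ratios of 1.04 (exact binomial 95% interval 0.99 to 1.10) and 0.96 (0.899 to 1.03). Region 9 rose to 2.56 (2.25 to 2.92) and region 19 to 1.37 (1.20 to 1.56), while region 10 was at 0.581 (0.516 to 0.652) and region 21 at 0.36 (0.295 to 0.436). In GRdim, 4 of 12 regions were at least 2-fold higher at 6pm than at 6am and 1 at least 2-fold lower, against 41.5% and 10.4%, and after prednisolone 2 of 10 were higher and 0 lower, against 33.1% and 10.2%. Each condition was 1 pooled library, so these intervals cover counting error and no difference between animals.

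The distance between the strongest plus-strand and the strongest minus-strand border within 100 bp of a region centre was used to compare the footprint of GR. In WT, both borders were present at 15, 18 and 18 regions, and in GRdim at 8, 14 and 11. A distance of 29 to 31 bp occurred at 3, 5 and 3 WT regions, and at 0, 0 and 0 regions for GRdim. Over all regions of the series with both borders, the shares at that distance were 8.25%, 6.22% and 10.4% in WT and 2.39%, 2.31% and 2.25% in GRdim, so that 0 of 8, 14 and 11 regions is near the GRdim background. A distance of 10 to 12 bp occurred at 4, 0 and 4 WT regions and 0, 1 and 0 GRdim regions, against 8.83%, 5.37% and 11.0% in WT and 5.76%, 3.38% and 5.68% in GRdim. Where borders tied for the most tags the left-hand one was taken, and with the right-hand one 1 GRdim region, region 7 after prednisolone, had 31 bp. These counts rest on taking the strongest borders: with the closest opposite borders instead, 29 to 31 bp was left at 0, 1 and 0 WT regions. Fewer and weaker borders were listed in GRdim, and the part of this in the difference was not tested.

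Region 12 kept the same pair in every WT library. Its plus-strand border was centred at 150129674, 150129673 and 150129674, with 340, 361 and 301 tags, and its minus-strand border at 150129704, 150129703 and 150129704, with 260, 254 and 253 tags. The distance was 30 bp in all 3 libraries. In GRdim the strongest plus-strand border lay between 150129636 and 150129639, with 34, 61 and 45 tags, and the minus-strand one between 150129671 and 150129684, with 31 to 65 tags, at distances of 47, 44 and 35 bp. At 6pm a plus-strand border at 150129667, 6 bp from that of WT, also had 61 tags and would give 16 bp. After prednisolone GRdim also held borders near the WT pair, at 150129670 with 38 tags and at 150129706 with 23. At 6am it held a minus-strand one, at 150129705 with 19 tags. WT in turn held plus-strand borders at 150129636 or 150129637, with 128, 183 and 106 tags. Its minus-strand borders at 150129684 to 150129686 had 184, 221 and 187 tags. Region 10 had WT distances of 31, 31 and 30 bp, from a plus-strand border at 150120384 to 150120386 and a minus-strand border at 150120415 or 150120416. Its GRdim distances were 109, 115 and 33 bp, from borders of 15 to 31 tags. The first of these becomes 153 bp with the other of a pair of minus-strand borders tied at 24 tags. At 6pm GRdim also held borders at the WT positions, at 150120385 with 19 tags and 150120415 with 16 tags, against 23 and 24 tags for the strongest.

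Among the regions absent from GRdim lists, regions 9 and 13 had pairs of similar width and regions 19 and 22 mostly narrower ones. At region 9 the distance was 30 bp at 6am and 29 bp at 6pm, from 150100425 or 150100426 to 150100455, and 15 bp after prednisolone, when the minus-strand border at 150100442 had the most tags, 140. The border at 150100455 was still listed after prednisolone, with 131 tags, and another at 150100475 had 135. The untreated libraries also held the inner border, at 150100443 with 45 tags and at 150100440 with 77. At region 13 the distance was 28, 31 and 28 bp. At region 19 the untreated 6am and the prednisolone library gave 11 bp, from 150174210 to 150174221 with 73 to 162 tags, and 66 bp at 6pm, when the minus-strand border at 150174222 had 127 tags but another plus-strand border led with 74. The plus-strand border at 150174210 was still listed at 6pm, with 58 tags. At region 22 it was 12 and 13 bp untreated and 49 bp after prednisolone. Region 23, which GRdim did hold, showed both widths in WT, with 11 bp at 6am and 30 and 29 bp at 6pm and after prednisolone, all ending on the minus-strand border at 150246063. Every WT library listed both plus-strand borders, so the width turned on which held more tags. The border at 150246033 or 150246034 had 60, 73 and 74 tags. That at 150246052 or 150246053 had 64, 42 and 67.

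**Figure D4:**
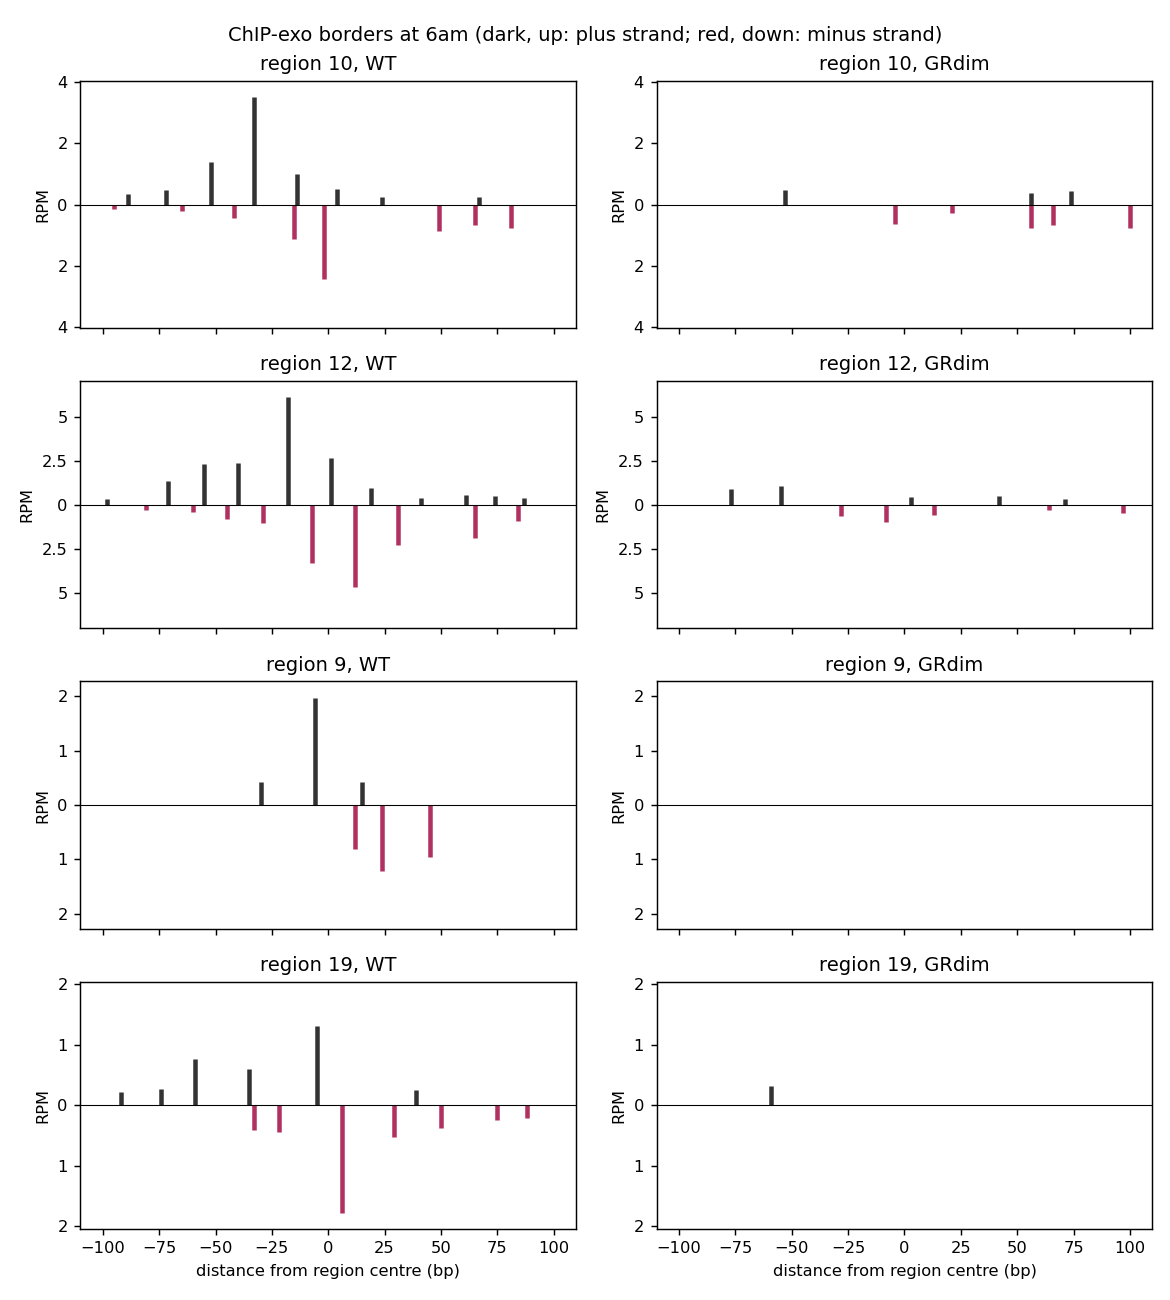
Listed ChIP-exo borders at 6am within 100 bp of the centres of regions 10, 12, 9 and 19, in RPM (linear axis, plus strand upward, minus strand downward), for WT on the left and GRdim on the right at the same scale. The tall WT borders of regions 10 and 12 stand 31 and 30 bp apart, and GRdim has no border at region 9.

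Regions 6 and 14 had strongest borders that coincided between genotypes in some libraries and not in others. At region 6 they were centred at 150081466 and 150081490 in GRdim at 6am, with 39 and 46 tags, and at 150081466 and 150081491 in WT after prednisolone, with 54 and 76 tags. The distances over the 3 conditions were 46, 66 and 25 bp in WT and 24, 14 and 128 bp in GRdim. Ties bear on this: a WT border at 150081465 had the same 45 tags at 6am and gives 27 bp, and in GRdim at 6pm the other of the tied borders gives 59 bp. At region 14 they were 14, 21 and -25 bp in WT and 22, 23 and 13 bp in GRdim, and both 6pm libraries had their plus-strand border at 150155689, with 78 tags in WT and 29 in GRdim. Both borders stayed within 2 bp over the 3 conditions at 3 of 14 WT regions with a pair in every library, regions 10, 12 and 13, and at 0 of 8 GRdim regions, against 10.9% and 2.99% of such regions in the series.

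Region 1 had strongest borders that did not recur as a pair in WT within 100 bp of its centre, but did over a wider span. Its strongest plus-strand border was centred at 150059365, 150059364 and 150059365 in WT, with 528, 605 and 517 tags, the highest of the window. The strongest minus-strand border within 100 bp of the centre changed between conditions, at 14, 27 and 53 bp from it with 261, 286 and 259 tags. A minus-strand border with 394, 512 and 378 tags lay 120 or 121 bp right of the centre, beyond the limit. With borders up to 150 bp from the centre the distances were 145, 147 and 145 bp, with both borders within 1 bp over the WT libraries. Another WT plus-strand border lay at 150059479, 89 bp right of the centre, with 444, 523 and 445 tags. With that minus-strand border, 120 or 121 bp right of the centre, it formed a narrower pair in every WT library. This narrower pair was about as wide as the WT pairs of regions 10 and 12. It is not in the counts above, which take the strongest borders within 100 bp of the centre. GRdim listed this other plus-strand border at 150059478 or 150059479, with 34, 53 and 35 tags. In GRdim the distances were 9, 45 and 9 bp, and the plus-strand border of 6am and prednisolone, at 150059369 with 51 and 45 tags, lay 4 bp from that of WT in the same conditions. Region 21 had no pair that recurred, with distances of -41, -75 and 99 bp in WT and 16, 49 and -6 bp in GRdim, from borders of at most 53 tags. A negative distance means that the minus-strand border lay to the left of the plus-strand one.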

How the data were processed

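ChIP-seq of GR and C/EBPβ and ChIP-exo of GR were analysed from 15 deposited lists, each a pool of 2 replicates per the labels. Bowtie, HOMER and mm9 are named per the submitters' processing notes, with settings not stated there. The ChIP-seq lists hold 200 bp peaks with a score that the authors assigned, in a unit not stated, used only to describe and rank peaks within a list. The ChIP-exo lists hold 10 bp borders with a tag count and an RPM value, per the file headers. Library size was taken as the deposited count over RPM, and tags at a region were summed and divided by it. The 2 RNA polymerase II and 12 input samples were not analysed here.

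Members and choices were made with earlier results of these data known. Positions are counted from 1, and border positions are centres of the 10 bp features. The region centre is the median centre of its GR peaks. Overlap needs 1 bp. Shares have exact binomial 95% intervals, tags exact Poisson ones and ratios of tags exact binomial ones. The rule for named regions took those in the top 5% of a GR list, in all 6 lists, in all WT and no GRdim lists, in GRdim alone, or nearest the right-hand end. Other regions are named where a count of few regions needed it, after their values were seen. The planned motif search under the peaks was not done, and the motifs in the Errfi1 promoters were chosen afterwards. The overlap and border code was tested on simulated data. Intervals used scipy 1.17.1, tables pandas 2.3.3 and numpy 2.4.6, and plots matplotlib 3.10.9, under Python 3.11.15.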

Additional observations from a re-analysis of the deposited data

Results flagged for a closer look

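At 3 regions the RPM of ChIP-exo tags moved in opposite directions in WT and GRdim under the same contrast, with the 95% interval of each ratio off 1. The difference between genotypes was not tested, since each condition is 1 pooled library. At region 6 the ratio of 6pm to 6am was 2.06 in WT (exact binomial interval 1.83 to 2.33) and 0.438 in GRdim (0.362 to 0.529), from 445 and 710 tags in WT and 295 and 179 in GRdim. The ChIP-seq score of the region moved the same ways, from 8.03 to 13.96 in WT and from 10.89 to 9.34 in GRdim. At region 21 the ratio of prednisolone to 6am was 0.36 in WT (0.295 to 0.436) and 1.89 in GRdim (1.45 to 2.49). Its ChIP-seq score fell in both genotypes, from 6.01 to 4.02 in WT and from 5.43 to 4.35 in GRdim, so the rise in GRdim tags has no counterpart there. At region 5, with no ChIP-seq peak in these lists, it was 0.264 in WT (0.135 to 0.482) and 2.54 in GRdim (1.13 to 6.43), from 8 to 54 tags a library. Over all regions of the series the median ratio of prednisolone to 6am was 0.764 in WT and 1.40 in GRdim, and that of 6pm to 6am was 1.55 and 1.63. The GRdim library of 6am had 31.6 M tags (M, 1000000) and the fewest listed borders, and its part in these ratios was not tested.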

How the results depend on the processing

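Of 136 alternative values for 43 counts and shares, 125 stayed within 1.5 times the count or within the 95% interval of the share. In the higher-scoring 50% of each list, all 9 GRdim peaks of prednisolone were found in WT (100%, against the 90.9% reported). With borders of at least 20 tags, 56.2% of the GRdim peaks of 6pm held a border, and the GRdim regions of 6pm with borders 10 to 12 bp apart went from 1 to 0. Taking the closest opposite borders in place of the strongest changed the pairs most. WT regions with 29 to 31 bp then numbered 0 at 6am, 1 at 6pm and 0 after prednisolone, WT regions with 10 to 12 bp numbered 3 at 6pm and 1 after prednisolone, and those of GRdim 3 at 6am and 2 at 6pm, since this choice takes the nearest border whatever its tags. Borders up to 150 bp from the centre, tried after the data were seen, changed no such count beyond 1.5 times, but moved the distance by over 2 bp at regions 1, 11, 15 and 21, for example in WT at 6am to 23 bp at region 21 and to -105 bp at region 15. Taking the right-hand border of ties, also tried after the data were seen, moved the GRdim regions of prednisolone with 29 to 31 bp from 0 to 1. No paired analysis was possible because each list is 1 pool and no replicate can be matched or left out. A fixed lowest score and the listing of borders limit the depth at which a missing peak or border can be read.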

Other observations

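Borders away from GR regions were unevenly spread. Of the 146 borders of the 6 libraries that lay over 500 bp from every region centre, 53 fell in a run of 803 bp at 150228953 to 150229755, which starts 757 bp right of the centre of region 21. For 6am, 6pm and prednisolone the run held 27, 1 and 9 borders in WT and 8, 0 and 8 in GRdim. The strongest border had 19 tags and no GR or C/EBPβ peak was listed in the run. Borders that far from every region were few at 6pm in the whole window, with 63, 12 and 44 in WT and 10, 3 and 14 in GRdim. The WT 6pm list held fewer borders in the window, 272 against 407 at 6am and 320 after prednisolone. Its borders outside the regions had a median of 21.5 tags, against 13.0 and 14.0, so weak borders were listed less there. In GRdim the window held 96, 162 and 180 borders, with medians of 11.0, 12.5 and 12.0 tags. The part of listing in these counts was not tested. The run was picked because it was the densest.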
